A study of Mus musculus with 8 samples.

Results

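The 7 genes described here encode proteins of a short signalling chain from a hormone-induced kinase to a ubiquitin ligase, together with relatives of these proteins. The set holds the kinases Sgk1, Sgk2 and Sgk3, the HECT-type ligases Nedd4 and Nedd4l, and the 14-3-3 proteins Ywhab and Ywhae. They were taken by gene symbol from the array's probe annotation. Each was read by 1 probe, so 7 of the 16361 probes in the value table are concerned, and all 7 had a value on each of the 8 arrays. The cells were mpkCCDc14, a mouse line from the renal cortical collecting duct grown as tight epithelial layers on collagen-coated filters and kept in steroid-free serum before treatment. They received aldosterone at 1 µM or ethanol vehicle for 1 h or 6 h, with 4 dual-colour arrays at each time, and each array set aldosterone cDNA in Cy5 against vehicle cDNA of the same time in Cy3. This is 1 cell line, and no label tells if the arrays of a time stem from different cultures. The p-values here cover array-to-array spread, which may be technical.

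Aldosterone acts on the mineralocorticoid receptor, a ligand-dependent transcription factor, and raises sodium uptake by principal cells of the collecting duct. Sgk1 is a serine/threonine kinase whose transcript is a classical early target of the hormone. In the textbook scheme Sgk1 phosphorylates Nedd4l (also called Nedd4-2), a ligase that otherwise ubiquitinates the epithelial sodium channel and removes it from the apical membrane. Phosphorylated Nedd4l is then held by 14-3-3 dimers, among them the beta (Ywhab) and epsilon (Ywhae) proteins, and no longer reaches the channel. Most of this control is exerted on proteins by phosphorylation and ubiquitination, and the arrays measured only transcripts.

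The sequences before the start sites are shown because Sgk1 is the member whose transcript is known to be driven by corticosteroid receptors, which bind a palindrome with a gap of 3 bases. RefSeq start-site windows for build GRCm38.p6 were at hand for Sgk1 (6 windows), Nedd4 (2) and Ywhae (1). Sgk2, Sgk3, Nedd4l and Ywhab are not shown. The 250 bases before each start were searched for the palindromic core GNACANNNTGTNC, which reads the same on both strands, and for its 6-base arms AGAACA or TGTTCT, which are each other's reverse complement, so both strands were covered. A full palindrome can hold both arms, and matches to core and arms overlap there. The core occurred in 1 of the 6 Sgk1 windows and in neither of the Nedd4 windows nor that of Ywhae. It occurred in 127 of 32851 windows of the same length (0.387%), and in any window of 119 of 27025 genes (0.44%). Neither share is that of genes with 6 windows, which like Sgk1 have more places for a match than most genes. An arm occurred in 3 of the 6 Sgk1 windows, 1 of the 2 Nedd4 windows and not in that of Ywhae. Of all windows 16.1% held an arm. Not every Sgk1 window with an arm is printed. The Sgk1 match to the core lies 964 bases before the most downstream of the 6 Sgk1 starts. A match is a description of letters, and binding was not measured. Capitals mark the core and arms in these sequences, read 5′ to 3′ on the plus strand:
Sgk1, chr10:21993640-21993889, window with the palindrome: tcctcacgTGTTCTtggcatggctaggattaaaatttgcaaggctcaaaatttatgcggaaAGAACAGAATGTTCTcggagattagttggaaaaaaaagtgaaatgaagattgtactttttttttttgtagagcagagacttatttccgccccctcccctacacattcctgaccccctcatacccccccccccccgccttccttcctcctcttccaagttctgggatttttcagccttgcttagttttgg
Sgk1, chr10:21994416-21994665, before the most downstream start: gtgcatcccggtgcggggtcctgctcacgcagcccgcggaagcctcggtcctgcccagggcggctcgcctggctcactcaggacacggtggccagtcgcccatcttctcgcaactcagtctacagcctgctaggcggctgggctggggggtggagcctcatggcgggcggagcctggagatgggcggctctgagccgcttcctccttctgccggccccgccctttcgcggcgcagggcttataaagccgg
Nedd4, chr9:72693048-72693297, window with 1 arm: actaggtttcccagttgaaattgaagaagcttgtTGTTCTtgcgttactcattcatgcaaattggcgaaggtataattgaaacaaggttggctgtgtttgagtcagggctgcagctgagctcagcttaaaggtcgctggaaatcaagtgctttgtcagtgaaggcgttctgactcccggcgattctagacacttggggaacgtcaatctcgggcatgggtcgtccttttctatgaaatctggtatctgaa
Ywhae, chr11:75732637-75732886, window without a match: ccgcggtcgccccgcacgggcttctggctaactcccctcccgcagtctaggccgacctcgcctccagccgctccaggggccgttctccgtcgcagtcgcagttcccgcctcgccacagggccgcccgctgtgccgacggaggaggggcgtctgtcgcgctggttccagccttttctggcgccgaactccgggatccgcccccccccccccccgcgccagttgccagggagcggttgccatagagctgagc

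All values below are log2 ratios of aldosterone over vehicle as the authors deposited them, so 0 means equal signal and 1 a doubling. They compare a gene with itself and hold no level, so neither the order of the 7 transcripts by abundance nor the identity of the cell line by its markers could be read from them. In RNA from a whole culture, a response of few cells and a weaker response of all cells cannot be told apart. The standard deviation of the ratios over an array's probes ranged from 0.31 to 0.589, widest on replicate 4 at 1 h. Treated cDNA always carried Cy5, so a gene-specific dye difference is part of each ratio and cannot be told apart from a response, except that a constant one cancels in the difference between times. Errors are standard errors from limma over all 8 arrays (n = 4 per time), and a gene is called where its Benjamini-Hochberg adjusted p over 15078 features is under 0.05. The spread of a gene was estimated from both times together, so its standard error is the same at 1 h and 6 h.

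At 6 h the aldosterone sample held more transcript of Sgk1 and Nedd4, 2 of the 7 members, both above vehicle, and at 1 h of Nedd4, Ywhab and Ywhae, 3 of the 7. The background was a call for 17.8% of features at 6 h, of which above vehicle 7.13% and below it 10.7%. At 1 h it was 41%, split into 20% above and 21% below. With 7 genes, counts of 2 and 3 are no result about the group. No member was called for 6 h minus 1 h, a comparison in which 0.0265% of features (4 of 15078) passed. Sgk1 at 6 h stood out by size: its ratio was the 7th highest of the 15078 features.

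**Figure D1:**
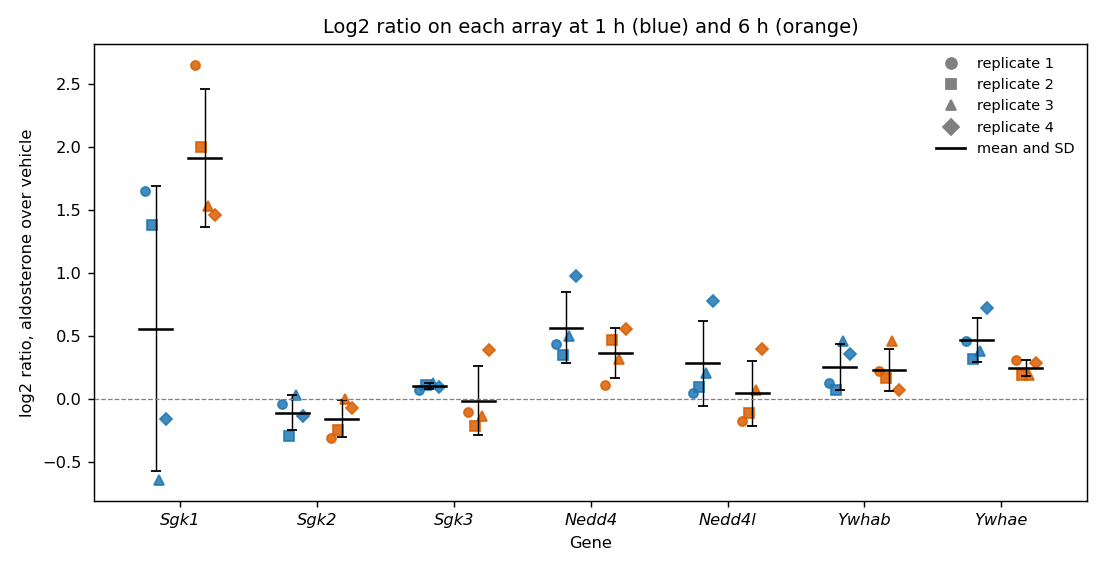
Log2 ratio of aldosterone over vehicle (vertical axis) for each of the 7 genes (horizontal axis) on each array, blue for 1 h and orange for 6 h, with a marker shape for each replicate and black bars for the mean and SD of 4 arrays. The 4 Sgk1 values at 6 h lie between 1.46 and 2.65, its values at 1 h split into a high and a low pair, and the other 6 genes stay between -0.31 and 0.98.

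Sgk1 at 6 h had ratios of 2.65, 2.00, 1.53 and 1.46 on replicates 1 to 4. All were far above 0, with replicate 1 highest, and their percentiles within the arrays were 99.4 and higher. The mean of 1.91 ± 0.35 is 3.76-fold, with a 95% interval from 1.12 to 2.70 (adjusted p = 0.00794). Leaving out any 1 of the 4 arrays gave means from 1.66 to 2.06 and kept the call, with adjusted p from 0.0231 to 0.0353.

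Sgk1 at 1 h had ratios of 1.65, 1.38, -0.64 and -0.16. Replicate 1 lay within the 6 h range and replicate 2 just under it, while replicates 3 and 4 lay below vehicle. The mean of 0.56 ± 0.35 was not called (95% interval -0.23 to 1.35, adjusted p = 0.227). Within their arrays these values stood at the 99.9th and 99.8th percentiles on replicates 1 and 2, but at the 4.02nd and 38.3rd on replicates 3 and 4. The SD over the 4 arrays, 1.13, was the 38th largest among 15078 features. Replicate 3 alone moved the mean most: without it the ratio was 0.96 (adjusted p = 0.0585). Without replicate 1 it was 0.19 (adjusted p = 0.69) and without replicate 2 it was 0.28 (adjusted p = 0.591). The interval rests on the spread of both times together, and the SD of Sgk1 was smaller at 6 h, at 0.55. It is therefore narrower than the 1 h spread alone would give. Even so it includes both no change and a ratio of more than 1, so these arrays do not settle the 1 h response.

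Sgk1 was higher at 6 h than at 1 h by 1.35 ± 0.50 on the log2 scale, with a 95% interval from 0.24 to 2.47. In limma its unadjusted p was under 0.05 but its adjusted p was 0.256, and the arrays of the times overlapped. With an array left out it ranged from 0.95 (without replicate 3 at 1 h) to 1.72 (without replicate 1 at 1 h) and was called in none of the 8 fits (adjusted p from 0.214 to 0.485).

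Sgk2 and Sgk3 are kinases closely related to Sgk1, Sgk3 having a lipid-binding domain that takes it to endosomes. Sgk2 gave -0.04, -0.29, 0.03 and -0.13 at 1 h, and -0.31, -0.24, 0.00 and -0.07 at 6 h. Its arrays scattered around and just below 0, with means of -0.11 ± 0.08 (adjusted p = 0.291) and -0.15 ± 0.08 (adjusted p = 0.194). The 95% intervals, -0.28 to 0.07 and -0.33 to 0.02, leave room for a small fall and for no change. Sgk3 gave 0.07, 0.11, 0.13 and 0.10 at 1 h. These 4 values were so close that their SD of 0.025 was among the smallest of all features (rank 15021 of 15078 from the highest), and the mean of 0.10 ± 0.09 was not called (adjusted p = 0.399). At 6 h Sgk3 gave -0.10, -0.21, -0.13 and 0.39. Replicate 4 alone was above 0, and the mean of -0.01 ± 0.09 (adjusted p = 0.937, 95% interval -0.22 to 0.20) changed sign without replicate 1, 2 or 3 (0.02 to 0.05).

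Nedd4, the founding member of the ligase family, gave 0.44, 0.35, 0.50 and 0.98 at 1 h. All 4 arrays were above 0 and replicate 4, on the array of widest spread, was highest. As percentiles within arrays the values were 93.9, 89.2, 95.7 and 96.1. The mean was 0.57 ± 0.11, or 1.48-fold (adjusted p = 0.00453), and it was 0.43 and still called without replicate 4 (adjusted p = 0.0115). At 6 h Nedd4 gave 0.11, 0.47, 0.32 and 0.56. The 4 arrays were again above 0, and the mean of 0.36 ± 0.11 was called narrowly (adjusted p = 0.0476). That call ended without replicate 2 (0.33, adjusted p = 0.144), 3 (0.38, adjusted p = 0.108) or 4 (0.30, adjusted p = 0.181). Any fit with an array less also called fewer features at 6 h, from 7.29% to 11.6%.

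Nedd4l, the ligase that Sgk1 phosphorylates, gave 0.05, 0.10, 0.21 and 0.78 at 1 h. Replicate 4 stood above the other three and the mean of 0.28 ± 0.13 was not called (adjusted p = 0.104). Without that array the ratio was 0.12 (adjusted p = 0.424). At 6 h Nedd4l gave -0.17, -0.11, 0.07 and 0.40, arrays on both sides of 0, with a mean of 0.05 ± 0.13 (adjusted p = 0.824, 95% interval -0.24 to 0.34) that was -0.07 without replicate 4.

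Ywhab, the beta 14-3-3 protein, gave 0.13, 0.07, 0.46 and 0.36 at 1 h and 0.22, 0.17, 0.46 and 0.07 at 6 h. Every array was above 0, with replicate 3 highest at both times. The mean at 1 h, 0.26 ± 0.09, was called narrowly (adjusted p = 0.0428), and the call ended without replicate 1 (0.30, adjusted p = 0.057), 3 (0.19, adjusted p = 0.176) or 4 (0.22, adjusted p = 0.127). It also ended with the arrays scaled to a common spread (adjusted p = 0.108), quantile-normalized (adjusted p = 0.0828), or with each time fitted alone (adjusted p = 0.073). The mean at 6 h, 0.23 ± 0.09, was not called (adjusted p = 0.0987), but it was with those scalings (0.29 in both, adjusted p = 0.0398 and 0.0422).

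Ywhae, the epsilon 14-3-3 protein, gave 0.46, 0.32, 0.38 and 0.72 at 1 h and 0.31, 0.19, 0.19 and 0.29 at 6 h. It was above 0 on all 8 arrays, and its lowest 1 h value, 0.32, lay just above its highest 6 h value, 0.31. The mean at 1 h was 0.47 ± 0.08, or 1.39-fold (adjusted p = 0.00234), and that call held without each of the 4 arrays (0.39 to 0.52). The mean at 6 h, 0.24 ± 0.08, just missed the threshold (adjusted p = 0.0518) and passed it with either scaling between arrays (0.28 and 0.29, adjusted p = 0.00521 and 0.0059) and with each time fitted alone (adjusted p = 0.0445). The later ratio minus the earlier one was -0.22 ± 0.11 and was not called (adjusted p = 0.332).

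**Figure D2:**
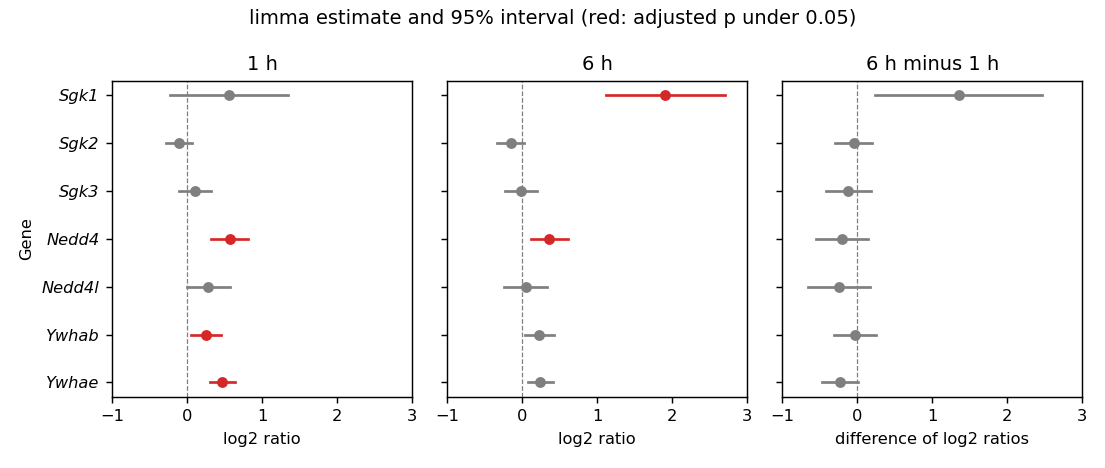
Estimated log2 ratio (points) and 95% interval (lines) of the 7 genes at 1 h, at 6 h and for 6 h minus 1 h, with genes on the vertical axis, the log2 scale on the horizontal axis and red for an adjusted p under 0.05. Sgk1 at 6 h, at 1.91, lies apart from the rest, and no gene is red for the difference between times.

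Ordered by ratio at 6 h the members ran Sgk1, Nedd4, Ywhae, Ywhab, Nedd4l, Sgk3, Sgk2. The lowest Sgk1 array (1.46) was above the highest Nedd4 array (0.56), while every other pair of neighbours in that order overlapped. Whether relatives differed was tested within arrays in 5 pairs by an exact sign-flip permutation test, two-sided, with p adjusted over the 5 pairs. With 4 arrays of 1 time that exact test cannot go below p = 0.125. At 6 h the Sgk1 ratio exceeded that of Sgk2 by 2.06 ± 0.69 (SD, n = 4) and that of Sgk3 by 1.92 ± 0.72, each on 4 of 4 arrays and each at that smallest exact p of 0.125 (adjusted 0.208). Over all 8 arrays, both times together, the differences were 1.36 and 1.19, above 0 on 6 of 8 arrays (exact p = 0.0312 for each, adjusted 0.0521). Sgk2 lay below Sgk3 by 0.18 ± 0.19 on average, on 7 of 8 arrays (exact p = 0.0469, adjusted 0.0586).

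Nedd4 exceeded Nedd4l on every one of the 8 arrays. The difference was 0.39, 0.25, 0.29 and 0.20 at 1 h and 0.28, 0.58, 0.25 and 0.16 at 6 h, with a mean of 0.30 ± 0.13 (SD, n = 8). The exact p of 0.00781 is the smallest that 8 arrays can give (adjusted 0.0391). With any 1 array left out the mean ran from 0.26 to 0.32 and the exact p was 0.0156, the smallest that 7 arrays can give. Adjusted over the 5 pairs it was 0.0391 to 0.0781, which depends on the p of the other pairs, so these fits do not show which arrays the difference rests on. The pair shared its high array, replicate 4, at both times. A dye difference between the probes of Nedd4 and Nedd4l would be part of this gap and was not tested. Ywhab lay 0.12 ± 0.22 below Ywhae (exact p = 0.188, adjusted 0.188), below it on 6 of 8 arrays.

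The genes whose ratios lay nearest to those of Sgk1 over the 8 arrays, by root mean square difference among named genes, were Fkbp5 (0.645), Tsc22d3 (0.681), Noct (0.739), Tnfsf11 (0.743) and Scnn1a (0.747), against a median of 1.62 over all named genes. Fkbp5 is an immunophilin of steroid receptor complexes, Tsc22d3 the glucocorticoid-induced leucine zipper protein, Noct a circadian deadenylase-like protein, Tnfsf11 the cytokine RANKL and Scnn1a the alpha subunit of the sodium channel. The 5 genes were chosen for likeness over these same arrays, so a pattern shared with Sgk1 is built into the choice. At 1 h, Tsc22d3 gave 1.01, 0.88, -0.60 and -0.15, the same split as Sgk1. Tnfsf11 gave 1.80, 1.64, 0.05 and -0.09, also high on replicates 1 and 2 only. Noct (1.25, 0.78, 0.02 and 0.41), Fkbp5 (0.76, 0.69, 0.03 and 0.63) and Scnn1a (0.59, 0.43, 0.12 and 0.55) were lowest on replicate 3 but above 0 on every 1 h array. On replicate 4, Tsc22d3 and Tnfsf11 were just below 0 with Sgk1, and the other three were between 0.41 and 0.63. At 6 h the 5 genes were above 0 on all arrays, with Tnfsf11 near 0 on replicate 3 (0.03).

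**Figure D3:**
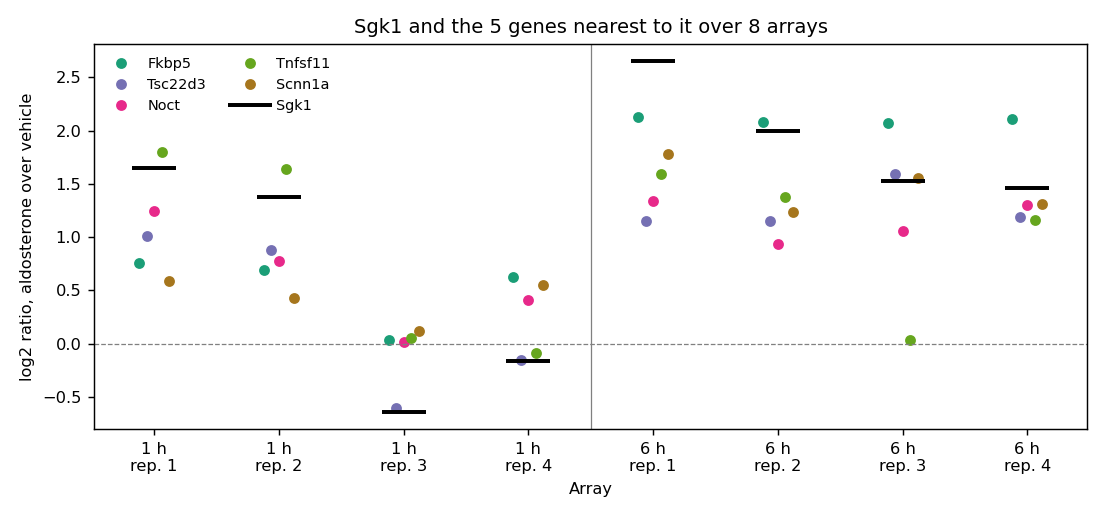
Log2 ratio of aldosterone over vehicle (vertical axis) on each of the 8 arrays (horizontal axis) for Sgk1 (black bars) and the 5 genes nearest to it by root mean square difference (coloured points). Replicate 3 at 1 h is the array on which Sgk1 is lowest, at -0.64, and Tsc22d3 lies close to Sgk1 there at -0.60.

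Other genes of the pathway were counted by role. Of 70 listed genes, 56 were measured besides the members. At 1 h 12 of them were above vehicle and 5 below (30.4% called, against 41% of all features), and at 6 h 9 were above and 3 below (21.4%, against 17.8%). Their median ratios were 0.08 and 0.04, against 0.00 over all features at each time.

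The kinases and scaffolds around Sgk1 are a list of its regulators and partners together with the parallel Akt kinases. Of 10 measured, 1 was above vehicle at each time and none below (medians 0.08 and 0.05). This is 10% called at each time, beside 41% of all features at 1 h and 17.8% at 6 h. Akt1, of the same kinase family as Sgk1 and sharing many of its target sites, was above vehicle at 1 h at 0.49 ± 0.09 (adjusted p = 0.00427). It gave 0.26, 0.34, 0.53 and 0.82 on the 1 h arrays. Tsc22d3, whose protein joins Sgk1 at the sodium channel regulatory complex, was above vehicle at 6 h at 1.27 ± 0.23 (adjusted p = 0.00778). Mlst8, a subunit of the mTOR complexes, was not called (0.35 ± 0.14 at 1 h, adjusted p = 0.0615), and its replicate 4 alone reached 1.00. Pdpk1, the kinase that phosphorylates the activation loop of Sgk1, had 0.08 ± 0.07 and 0.08 ± 0.07 (adjusted p = 0.399 and 0.477).

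Of 8 chaperones and turnover factors of Sgk1, 3 were above vehicle and 1 below at 1 h, and 1 was above at 6 h (medians 0.21 and 0.00). The share called was 50% at 1 h and 12.5% at 6 h, beside 41% and 17.8% of all features. Stub1, the CHIP ligase that ubiquitinates Sgk1, was below vehicle on all 4 arrays at 1 h (-0.28, -0.32, -0.35 and -0.78), with a mean of -0.43 ± 0.09 (adjusted p = 0.00679). At 6 h it was at -0.10 ± 0.09 (adjusted p = 0.501). Cdc37, the kinase-specific partner of Hsp90, was above at 1 h at 0.57 ± 0.14 (adjusted p = 0.0106). Rbx1, the RING subunit of cullin ligases, was above at both times, at 0.50 ± 0.13 (adjusted p = 0.013) and 0.44 ± 0.13 (adjusted p = 0.0404). The 6 h call of Rbx1 ended whichever array was left out (adjusted p 0.0745 to 0.16).

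Of 4 other HECT ligases of the Nedd4 family, Wwp1 was above vehicle at both times and the rest were not called. This is 25% at each time, beside 41% of all features at 1 h and 17.8% at 6 h. Wwp1 gave 0.25, 0.29, 0.26 and 0.22 at 1 h and 0.38, 0.18, 0.32 and 0.44 at 6 h. Its means were 0.26 ± 0.06 (adjusted p = 0.0123) and 0.33 ± 0.06 (adjusted p = 0.00945), and each call held without any array of its time. Wwp2 had -0.07 and -0.11 (adjusted p = 0.436 and 0.29). Smurf1 was above 0 on every array at 1 h and below 0 on every array at 6 h, with means of 0.10 and -0.17 (adjusted p = 0.361 and 0.174).

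The adaptors that bring these ligases to substrates had no call at 1 h and 2 above and 1 below at 6 h, of 6 measured. Called were 0% at 1 h, beside 41% of all features, and 50% at 6 h, beside 17.8%. The related membrane proteins Ndfip1 and Ndfip2 went opposite ways at 6 h. Ndfip1 gave 0.46, 0.25, 0.23 and 0.54 (mean 0.37 ± 0.09, adjusted p = 0.0256). Ndfip2 gave -0.08, -0.37, -0.48 and -0.84 (mean -0.44 ± 0.11, adjusted p = 0.0271). The Ndfip2 value averages probes at -0.04 (adjusted p = 0.738) and -0.84 (adjusted p = 0.0127), which do not agree. Arrdc2, an arrestin-like adaptor, was at 0.27 ± 0.08 (adjusted p = 0.0422). Each of these calls ended without 3 of the 4 arrays: Ndfip1 without replicate 1, 2 or 4, and Ndfip2 and Arrdc2 without replicate 2, 3 or 4 (adjusted p from 0.0553 to 0.17).

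Of the 5 other 14-3-3 genes, 4 were called above vehicle in the 1 h comparison, with 0 below and a median of 0.39, and at 6 h 1 was above (median 0.17). With the 2 members this made 6 of 7 above vehicle at 1 h, where 20% of all features were above, and all 7 ratios were above 0. With the arrays scaled or quantile-normalized all 7 were again above 0 and 5 of 7 were called, beside 35.8% and 38.7% of all features called in either direction. With an array left out 4 or 5 of 7 were called above vehicle, beside 28.7% to 34.6% of features called in either direction. At 6 h 1 of 7 was called, where 7.13% of features were above. With scaling or quantile normalization it was 4 of 7, beside 33.3% and 32.3% of features called in either direction. Ywhaz, the zeta protein, gave 0.46, 0.30, 0.53 and 0.75 at 1 h and 0.48, 0.34, 0.43 and 0.38 at 6 h. Its means were 0.51 ± 0.08 (adjusted p = 0.00192) and 0.41 ± 0.08 (adjusted p = 0.00889). Sfn, the sigma protein of epithelia, was at 0.48 ± 0.09 (adjusted p = 0.00359) at 1 h and Ywhah, the eta protein, at 0.39 ± 0.07 (adjusted p = 0.00437). At 6 h these were at 0.17 and 0.23 and not called (adjusted p = 0.191 and 0.0618). Whether a dye difference common to these transcripts is part of their ratios was not tested.

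Of 8 ubiquitin-conjugating enzymes and ubiquitin proteases, 2 were above vehicle at each time and none below. This is 25% called at each time, beside 41% of all features at 1 h and 17.8% at 6 h. Ube2d3, a conjugating enzyme that serves HECT ligases, gave 0.64, 0.58, 0.46 and 1.15 at 1 h and 0.57, 0.48, 0.61 and 0.45 at 6 h. Its means were 0.71 ± 0.10 (adjusted p = 0.00171) and 0.53 ± 0.10 (adjusted p = 0.00978). Ube2d1 was at 0.37 ± 0.11 at 1 h (adjusted p = 0.0257), a call that ended without replicate 3 (0.37, adjusted p = 0.0701) or 4 (0.21, adjusted p = 0.07). Usp2, a protease that removes ubiquitin from the sodium channel, was at 1.05 ± 0.15 at 6 h (adjusted p = 0.0033), with 1.45, 0.87, 0.89 and 0.97 on the arrays. At 1 h Usp2 gave 0.46, 0.92, -0.01 and 0.06, lower on replicates 3 and 4 as Sgk1 was (adjusted p = 0.0832).

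Of 13 substrates and targets of Sgk1 or Nedd4l, 1 was above and 4 below vehicle at 1 h, and 1 above and 2 below at 6 h (medians -0.08 and -0.15). The share called was 38.5% at 1 h and 23.1% at 6 h, beside 41% and 17.8% of all features. Of the sodium channel subunits, Scnn1a was above vehicle at 6 h at 1.47 ± 0.11 (adjusted p = 0.000201) on all 4 arrays. The gamma subunit Scnn1g was below vehicle at 1 h at -0.50 ± 0.12 (adjusted p = 0.00962) and was not called at 6 h, at -0.26 ± 0.12 (adjusted p = 0.144). At 1 h Scnn1a was at 0.42 ± 0.11 (adjusted p = 0.0124), a call that ended with arrays scaled (adjusted p = 0.119) or quantile-normalized (adjusted p = 0.0742) and without replicate 1 (adjusted p = 0.0503). The beta subunit Scnn1b was at 0.03 ± 0.08 and -0.15 ± 0.08 (adjusted p = 0.805 and 0.225). Foxo3, a transcription factor that Sgk1 phosphorylates and holds in the cytosol, gave -0.27, -0.30, -0.31 and -0.29 at 6 h (mean -0.29 ± 0.06, adjusted p = 0.0121, and 0.0504 without replicate 3). The mineralocorticoid receptor gene Nr3c2 was listed but not measured. The glucocorticoid receptor gene Nr3c1 and Hsd11b2, the enzyme that inactivates glucocorticoids in collecting duct cells, were not called at either time. Nr3c1 gave -0.06, -0.31, 0.41 and -1.04 at 1 h, a mean of -0.25 ± 0.20 (adjusted p = 0.33) that was 0.013 without replicate 4.

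**Figure D4:**
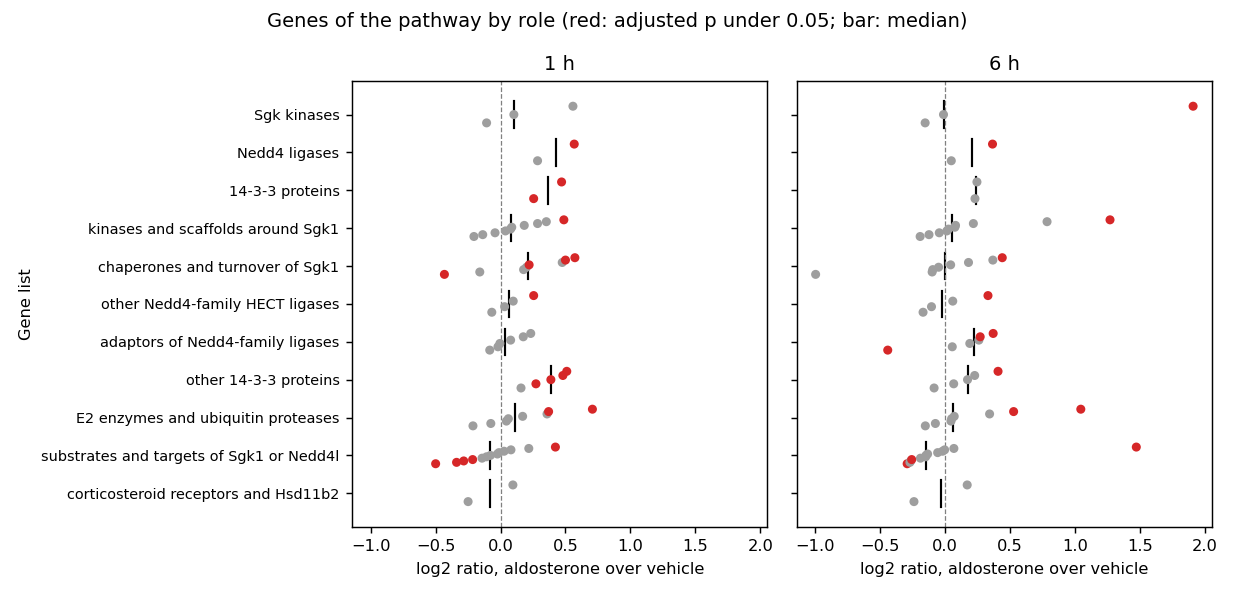
Log2 ratio (horizontal axis) of each measured gene, grouped by role (vertical axis), at 1 h and 6 h, with red for an adjusted p under 0.05 and a black bar for the list's median. The 14-3-3 genes lie to the right of 0 at 1 h, and at 6 h Sgk1 (1.91), Scnn1a (1.47), Tsc22d3 (1.27) and Usp2 (1.05) are the red points farthest to the right.

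Marker genes of cell types were read for their ratios only. Of 12 principal cell markers 2 were above and 4 below vehicle at 1 h, and 2 above and 2 below at 6 h. Of 9 intercalated cell markers 1 was above and 4 below at 1 h, and 1 above and 1 below at 6 h. Of 11 stromal, endothelial and blood cell markers the counts were 1 and 4, and 1 and 1. In the order given, 50%, 55.6% and 45.5% of the lists were called at 1 h, beside 41% of all features. At 6 h it was 33.3%, 22.2% and 18.2%, beside 17.8%. Over replicates 1 to 4 at 1 h, the median ratio of the principal cell list was -0.085, -0.02, 0.055 and -0.155. That of the intercalated cell list was -0.1, -0.05, -0.17 and -0.43, lowest on replicate 4, the array of widest spread. Its genes did not move together on replicate 3, where some lay above their values on replicates 1 and 2 and others below. That of the third list was -0.11, -0.22, -0.15 and -0.22. The part of these markers in the Sgk1 values was not tested.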

How the data were processed

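The deposited log2 ratios of Cy5 over Cy3 were, per the labels, read with a GenePix 4.0 scanner and normalized by the authors in R and Bioconductor, while the kind of normalization, background correction and spot filter is not given in the sources used here. No scanner signals were used, so signal over background is unknown. Probes were named through the platform annotation, and probes of 1 symbol were averaged after those with fewer than 3 of 4 values at a time were left out, which gave 12535 genes and 2543 unnamed probes. Limma 3.58.1 (R 4.3.3) was fitted to all genes on all 8 arrays with a mean per time (6 residual and 3.73 prior degrees of freedom) and tested on simulated data. P-values are two-sided. Array correlations ran from 0.308 to 0.707 over probes and at most 2.06% of values were equal, so no array repeats another. Replicates are numbered in the order of deposit, except replicates 3 and 4 at 6 h, which the labels number. The 7 genes, the gene lists and the tests were chosen with earlier results of these data known. From each list the text names the 3 genes with the smallest p at either time, and the 5 genes nearest to Sgk1. Pdpk1 and Scnn1b were added for their roles after their values were seen. Alternatives were other scalings, single probes, robust moderation, array weights, each time alone, SAM as named in the labels, and each array left out. Figures were drawn with matplotlib 3.10.9.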

Additional observations from a re-analysis of the deposited data

Results flagged for a closer look

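Among the members and the named genes of the pathway, 60 groups of 4 arrays were examined for a single distant array, of which chance marks about 1 in 20. No member had one. At 1 h Rbx1 had 1.07 on replicate 4 against 0.25 to 0.35 on the others, and Stub1 had -0.78 on replicate 4 against -0.35 to -0.28. Both lie on the array with the widest spread of ratios. At 6 h Tsc22d3 had 1.59 on replicate 3 against 1.15 to 1.19. Smurf1 was above 0 on all 4 arrays at 1 h and below 0 on all 4 at 6 h, a difference of -0.27 that limma did not call (adjusted p = 0.304).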

How the results depend on the processing

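No paired analysis was possible because the labels give no replicate numbers at 1 h. Sgk1 was called at 6 h and not at 1 h or for the difference under every alternative run. At 6 h 2 members were called as reported, 4 with arrays scaled to a common spread, with quantile normalization, with array weights and with SAM (Ywhab and Ywhae added), and 1 to 2 with an array left out (1 without replicate 2, 3 or 4, where Nedd4 was lost). With each time fitted alone it was 3 (Ywhae added), beside 15.9% of all features. Scaling, quantile normalization, array weights and SAM also called more of all features at 6 h (33.3%, 32.3%, 26.8% and 34.4% in that order), and leaving out an array called fewer. At 1 h 3 members were called as reported and 2 with scaling, with quantile normalization, with each time alone and without replicate 1, 3 or 4 (Ywhab lost). In that order these called 35.8%, 38.7%, 32.5%, 33.2%, 30.1% and 28.7% of all features, fewer than the 41% as reported. Without replicate 2 at 1 h it was 3 members and 34.6% of features. SAM called 53% of features there and 4 members (Sgk3 added). For 6 h minus 1 h limma called 4 features (2429 at an unadjusted p under 0.05) and SAM 288, no member among either. The difference of Ywhab between times, -0.02 as reported, was 0.080 with scaling, 0.061 with quantile normalization and 0.054 with array weights, and ran from -0.10 to 0.043 with an array left out. Other uncalled values that changed sign with an array left out were Sgk3 at 6 h (-0.15 to 0.053), Nedd4l at 6 h (-0.07 to 0.12), Sgk2 for the difference (-0.11 to 0.0056), Nr3c1 at 1 h (-0.25 as reported, -0.47 to 0.013) and Mlst8 at 6 h (-0.0020 to 0.061). With an array left out, Nedd4 minus Nedd4l ranged from 0.26 to 0.32 and Sgk2 minus Sgk3 from -0.22 to -0.14. The latter passed only without replicate 3 at 6 h (adjusted exact p = 0.0391), and 7 arrays cannot bring 1 pair alone past the threshold after adjustment. Among the other named pathway genes, 5 calls were lost and 24 gained over the other settings, and 17 were lost and 2 gained with an array left out. Requiring values on all 8 arrays left the same features and single probes the same values, so neither changed a member's ratio. Pair differences by probe were not run because each member has 1 probe. The cause of these changes was not tested, and 4 arrays per time limit the precision.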

Other observations

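The next genes in the order of likeness to Sgk1 were Serinc3, Sult1d1, Ccn2, Cfp and Usp2, at root mean square differences from 0.785 to 0.825, named here after their values were seen. Likeness was measured over these same arrays, so a pattern shared with Sgk1 follows from the choice. Ccn2, which encodes connective tissue growth factor, gave 1.35, 1.26, -0.57 and 0.01 at 1 h, high on replicates 1 and 2 and low on replicates 3 and 4. At 6 h it gave 1.06, 0.55, 0.96 and 0.98 (limma adjusted p = 0.0523). Serinc3, a serine incorporator of membranes, was above 0 on all 8 arrays, from 0.25 to 0.69 at 1 h and from 1.26 to 1.62 at 6 h. Sult1d1, a cytosolic sulfotransferase, gave 0.30, -0.14, -0.23 and -0.42 at 1 h and 1.99 to 2.83 at 6 h.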
